A study of Drosophila melanogaster with 44 samples.

Results

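Hrb87F, Hrb98DE, Hrb27C, squid (sqd) and glorund (glo) are Drosophila genes of the hnRNP group, proteins that coat nuclear RNA. They were followed through 44 Affymetrix arrays of adult females, of which all but the 6 wild-type arrays came from flies that had lost 1 copy of 1 or 2 chromosome segments. The genes are those listed for the family, and every probe set annotated to exactly 1 of them was taken. Probe sets were found for 4 of the 5 genes, among 11889 measured genes placed on a chromosome arm. These are 1639118_a_at for Hrb87F, 1640169_s_at and 1638912_s_at for Hrb98DE, 1632891_s_at for Hrb27C and 1641170_a_at for glo, and sqd was not analysed here. In the array maker's naming, the ending _s_at marks probes that can match transcripts of more than 1 gene. All 4 genes had a mean of at least 6 on the log2 scale and were among the 7485 genes tested. The list was chosen by its log2 values in flies carrying the deletion ED5071 against the other flies, so that comparison is given as a description, without a test.

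Proteins of the hnRNP group bind transcripts as they are made and take part in splice-site choice, export, localisation and translation. In the Drosophila ovary several of them act on the maternal messages gurken, oskar and nanos, which set the axes of the egg. Hrb87F and Hrb98DE are close relatives of the A/B type, with a pair of RNA recognition motifs and a glycine-rich tail. Hrb87F protein gathers with the noncoding RNA hsr-omega in nuclear speckles. Hrb27C binds oskar and gurken RNA and takes part in the repression of oskar translation, and Glorund, of the hnRNP F/H type, represses nanos.

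The flies were heterozygous for Df(3R)ED5071, Df(3R)ED7665, Df(3R)ED10953, Df(2L)ED4559, Df(2L)ED3, Df(2R)ED1612 or Df(2R)ED1770, here called by their ED names, or for a pair of these, and were compared with wild type, whose strain the labels do not name. ED5071 carriers had 7 arrays, 2 of flies with that deletion alone and 5 of doubles with ED4559, ED10953, ED1770, ED1612 or ED3. ED7665 carriers had the same layout of 7 arrays. The other 5 deletions had 3 single arrays each and 9 doubles among them, and wild type had 6 arrays. The labels place the deletions on opposite homologous chromosomes in the doubles ED5071/ED10953, ED7665/ED10953, ED4559/ED3 and ED1770/ED1612. In every other double the labels give each deletion over +. Each sample held 15 whole females, 0 to 24 h old, raised at 25 °C. The labels call the replicates biological and each double combination had 1 array, so p-values measure the spread between these samples. In whole flies, fewer cells of a type and less RNA per cell cannot be told apart.

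Array numbers in the labels split the data. All ED5071 and ED7665 arrays and the third replicates of the other 5 deletions were numbered from 27, while wild type and the remaining 19 deletion arrays were numbered up to 26. Markers of the ovary also varied. The mean of 21 germline genes, relative to wild type, lay between -0.81 and 0.88 in ED5071 carriers (median 0.35), between -0.48 and 0.79 in the other 12 arrays numbered from 27 (median 0.47), and between -0.94 and 1.46 in all 37 other arrays (median -0.14). Wild-type replicates 4 and 5 were the highest of their group, at 1.459 and 0.999. The mean of 13 eggshell and follicle cell genes ran from -2.75 to 2.40 in ED5071 carriers and from -2.83 to 3.15 in the other arrays. None of the 15 listed genes of testis and male accessory gland reached a mean of 6. Array medians lay between 5.50 and 5.73, and the number of arrays limits the precision.

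Hrb87F was lower in every fly sample that carried ED5071 than in every sample that did not. Its log2 values were 9.96 and 9.97 in the flies with ED5071 alone. They were 9.35 in the double with ED4559, 9.56 with ED10953, 9.61 with ED3, 9.90 with ED1612 and 10.02 with ED1770. The 37 other arrays had a lowest value of 10.30, a median of 10.51 and a highest value of 11.13. The 7 carriers thus stood apart from all other arrays, with no overlap. Among those others, ED7665 carriers lay between 10.46 and 10.88 (median 10.69), the third replicates of the other 5 deletions between 10.51 and 10.91 (median 10.75), and the remaining deletion arrays between 10.30 and 10.72 (median 10.46). The 6 wild-type arrays read 10.34, 10.78, 10.51, 11.13, 11.01 and 10.37, the widest spread of any group without ED5071. No group without the deletion reached down to the ED5071 carriers.

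**Figure D1:**
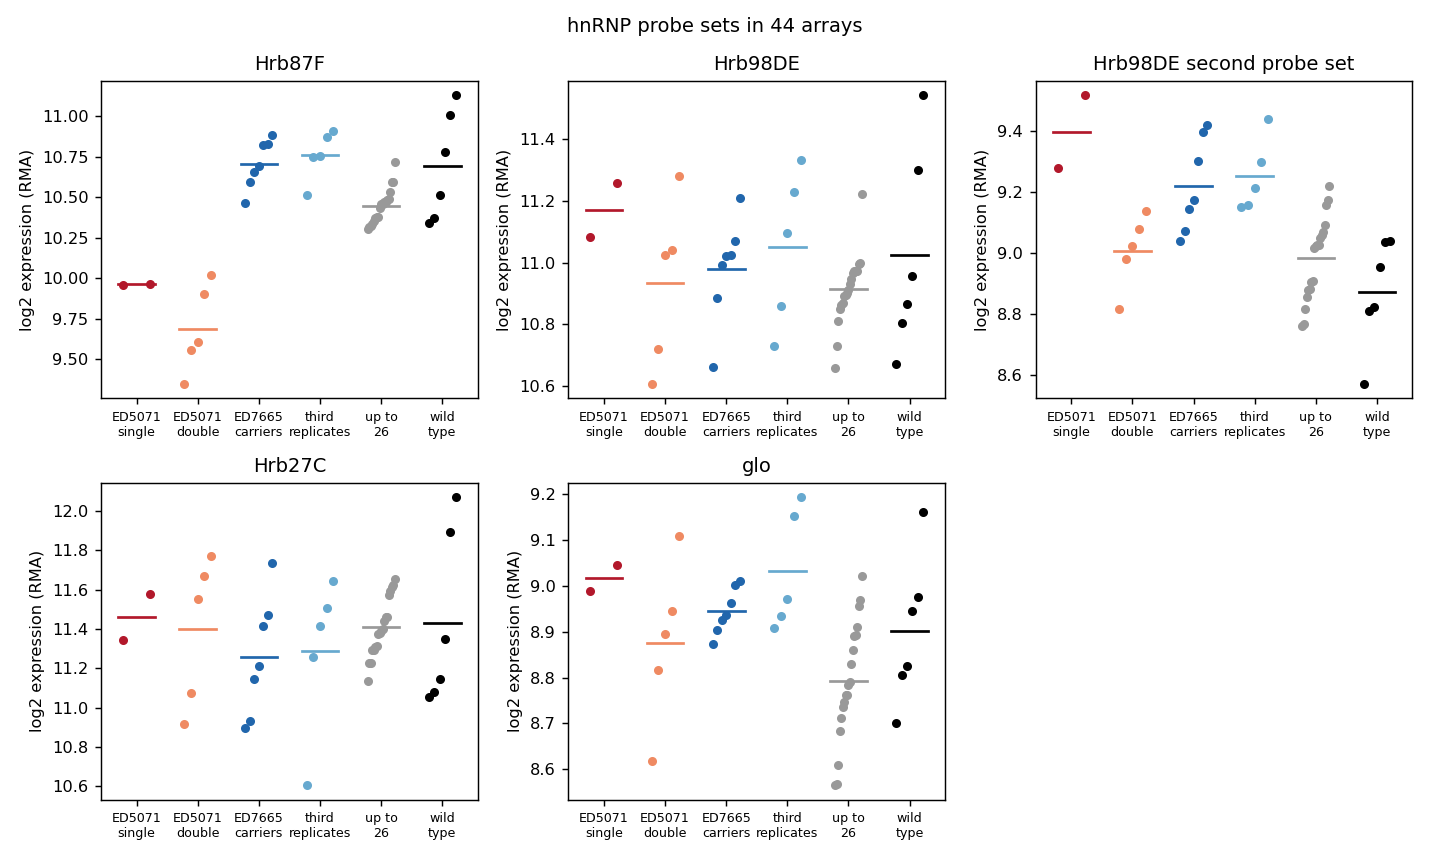
Log2 expression (RMA) of the 5 probe sets in 44 arrays, 1 point per array, in ED5071 singles, ED5071 doubles, ED7665 carriers, the third replicates of the other 5 deletions, other deletion arrays numbered up to 26, and wild type; horizontal lines are group means. The 7 ED5071 arrays of Hrb87F lie between 9.35 and 10.02, below the lowest other array at 10.30, while the other 4 panels overlap.

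The mean of Hrb87F was 9.77 ± 0.26 in ED5071 carriers (SD, n = 7) and 10.58 ± 0.22 in all other arrays (SD, n = 37). The difference of -0.81 puts carriers at 57.1% of the others. Against the 12 other arrays numbered from 27, whose mean was 10.73 ± 0.15 (SD), it was -0.96, or 51.4%. The 2 singles against the 6 wild-type arrays gave -0.73, or 60.5%. An additive fit used the 44 arrays together, with a term for each deletion and for the array-number group. In it the ED5071 term of Hrb87F was -1.03 ± 0.11 (SE), a ratio of 0.490 with a 95% interval from -1.25 to -0.81 on the log2 scale. No p-value is attached, because this contrast chose the gene, and the interval takes no account of that choice.

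A count over all genes gives the background of that pattern. In the additive fit 3.14% of genes tested passed an adjusted p of 0.05 in ED5071, 81 higher and 154 lower (limma). All 7 carriers lay below all 37 other arrays for 31 of 7485 genes, or 0.414%. Of the 7434 tested genes outside the ED5071 interval it was 1 gene, or 0.0135%, and that gene was Hrb87F, which was chosen with this contrast known. In the opposite direction, carriers lay above all others for 1 gene, or 0.0134%, CG5961 on arm 3R, named after its values were seen. Of the 7434 genes, 11 had an ED5071 term at or below that of Hrb87F, a count that includes Hrb87F itself. The largest terms outside the interval were -2.12 for lncRNA:CR32368 (adjusted p = 0.0398), -1.41 for CG13947 (0.374) and -1.33 for the gut protease Jon99Fi (0.524). On the other side stood CG14715 at 2.13 (adjusted p = 0.00566), Glut4EF at 1.90 (4.7e-05) and Syt7 at 1.89 (0.00743, limma).

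Hrb87F lies on the same chromosome arm as the ED5071 segment, 3R, but outside it. The segment was mapped from expression, as the run of lower neighbouring genes from beta-Man to Ubc6, with 51 genes tested. These genes had a median ED5071 term of -0.95, or 51.7%, between -1.44 and -0.47, and 14 of the 51 were at or below the value of Hrb87F. The mapping picked lower genes on the same arrays, so their low terms are partly set by it. They are no independent yardstick for Hrb87F. In Release 6 gene order, 963 measured genes lie between Ubc6 and Hrb87F. glo lies on 3R too, with 758 measured genes in between, and Hrb98DE also maps to 3R, while Hrb27C is on 2L. None of the 4 genes lay in any of the 7 mapped segments.

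The genes around Hrb87F did not share its difference. Of the 10 measured genes on each side, 9 had a mean of at least 6, and their means differed by -0.29 to 0.10 between ED5071 carriers and the other arrays numbered from 27, against -0.96 for Hrb87F. The tested gene nearest on one side, rasputin (rin), the fly G3BP of stress granules, averaged 10.10 ± 0.28 in carriers (SD, n = 7) and 9.97 in the 37 other arrays. On the other side B52, an SR protein of splicing, averaged 10.90 ± 0.16 in carriers (SD, n = 7) and 11.02 in the others. The RNA-binding gene Rbp4 between rin and Hrb87F was dim, with a mean of 4.83 over all arrays, and differed by 0.06 within the arrays from 27. The most negative neighbour there was ninaB, a carotenoid oxygenase, at -0.29, named after its value was seen.

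**Figure D2:**
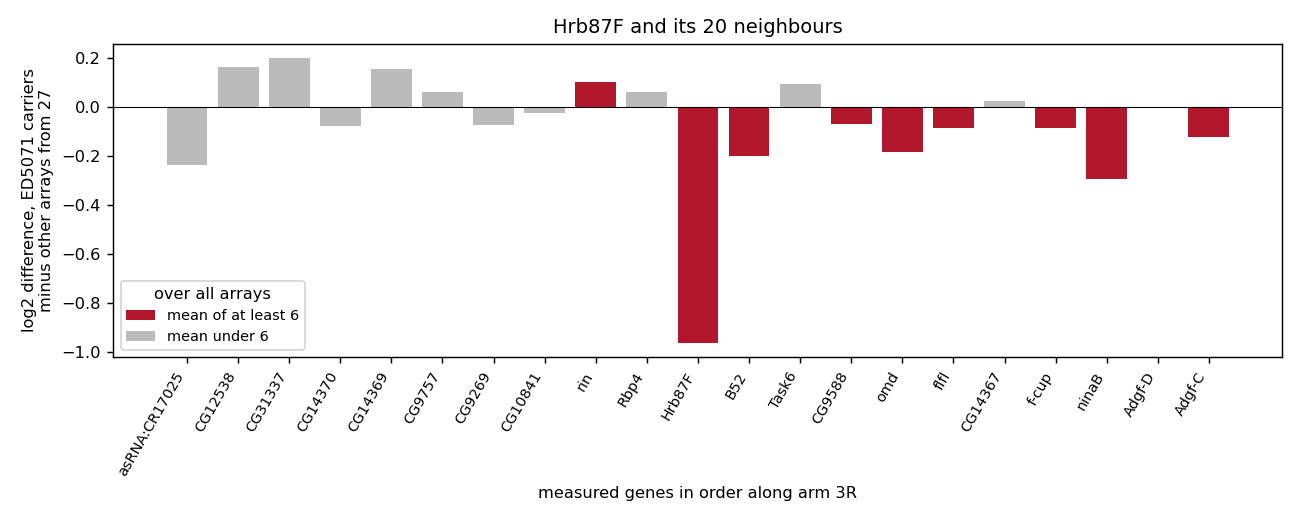
Mean log2 difference, ED5071 carriers (n = 7) minus other arrays numbered from 27 (n = 12), for Hrb87F and the 20 measured genes around it in order along arm 3R; red bars are genes with a mean of at least 6 over all arrays and grey bars those under 6. Hrb87F stands at -0.96, and its neighbours lie between -0.29 and 0.20.

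Hrb98DE, the close relative, overlapped between carriers and non-carriers. Its main probe set read 11.26 and 11.08 in ED5071 singles. In the doubles it read 10.61 with ED4559, 10.72 with ED10953, 11.28 with ED1770, 11.03 with ED1612 and 11.04 with ED3. The 37 other arrays ran from 10.66 through a median of 10.95 to 11.54, so the ED4559 double lay just below them and the other 6 carriers among them. The mean was 11.002 ± 0.254 in carriers (SD, n = 7) and 10.962 ± 0.192 in the others (SD, n = 37), and the ED5071 term of the additive fit was -0.06 ± 0.12 (SE, 95% interval -0.30 to 0.18).

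Taken within each array, the value of Hrb87F minus that of Hrb98DE had a smaller spread among ED5071 carriers than Hrb87F alone. It lay between -1.44 and -1.12 in ED5071 carriers, with a mean of -1.24 ± 0.11 (SD, n = 7). In the 37 other arrays it lay between -0.67 and -0.11, with a mean of -0.39 ± 0.14 (SD). The offset itself depends on the probes and carries no ratio of the 2 messages. Its difference between groups was -0.85.

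The second Hrb98DE probe set did not follow the main one everywhere. It read 9.52 and 9.28 in ED5071 singles and from 8.82 to 9.14 in the 5 ED5071 doubles, against 8.57 to 9.44 in the other arrays (median 9.04). Carriers averaged 9.12 ± 0.23 (SD, n = 7) and the others 9.05 ± 0.20 (SD, n = 37). The 2 singles were 0.53 above wild type, whose arrays averaged 8.87 ± 0.18 (SD, n = 6), but carriers lay 0.11 below the other arrays numbered from 27, so its direction turned with the arrays compared.

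Hrb27C overlapped between the groups as well. It read 11.57 and 11.34 in ED5071 singles and 11.08, 10.92, 11.77, 11.55 and 11.67 in the doubles with ED4559, ED10953, ED1770, ED1612 and ED3. The other arrays ran from 10.61 through a median of 11.38 to 12.07. Carriers averaged 11.41 ± 0.32 (SD, n = 7), against 11.37 ± 0.28 in the others (SD, n = 37), and the fitted term was 0.13 ± 0.15 (SE, 95% interval -0.18 to 0.45).

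glo read 9.04 and 8.99 in ED5071 singles, and 8.62, 8.82, 9.11, 8.94 and 8.90 in the doubles in the same order. Its other arrays ran from 8.56 through a median of 8.89 to 9.19. The mean was 8.92 ± 0.16 in carriers (SD, n = 7) and 8.87 ± 0.15 in the others (SD, n = 37). The fitted term was -0.13 ± 0.07 (SE, 95% interval -0.28 to 0.02), of opposite sign to the plain difference of 0.05.

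**Figure D3:**
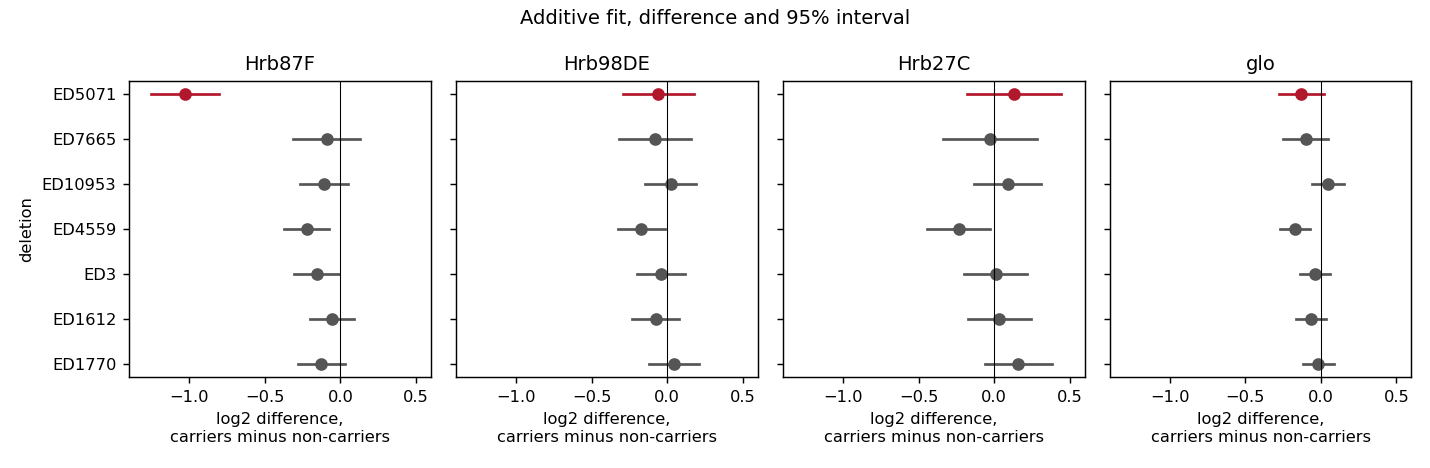
Log2 difference, carriers minus non-carriers, for each of the 7 deletions in the additive fit over 44 arrays, with its 95% interval, for the 4 genes; red marks ED5071. Hrb87F stands at -1.03 in ED5071, and the other 27 estimates lie between -0.23 and 0.16. The ED5071 intervals take no account of the choice of the genes on that contrast.

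Doubles that share a partner deletion give a comparison within arrays numbered from 27. For Hrb87F the ED5071 double minus the ED7665 double was -1.31 with ED4559 as the partner, -1.14 with ED10953, -0.57 with ED1770, -0.92 with ED1612 and -0.86 with ED3. The mean was -0.96 ± 0.28 (SD, 5 pairs), with the ED5071 double lower in 5 of 5. These arrays are part of the contrast that chose the gene, so the pairs are a description. Hrb98DE differed by -0.03 ± 0.27 (lower in 3 of 5 pairs), Hrb27C by 0.15 ± 0.39 (lower in 1 of 5) and glo by -0.06 ± 0.15 (lower in 3 of 5). The second Hrb98DE probe set was lower in 5 of 5 pairs, by a mean of -0.23 ± 0.07. The germline mean of the same pairs differed by -1.10 to 1.03, and its part in these differences was not tested.

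**Figure D4:**
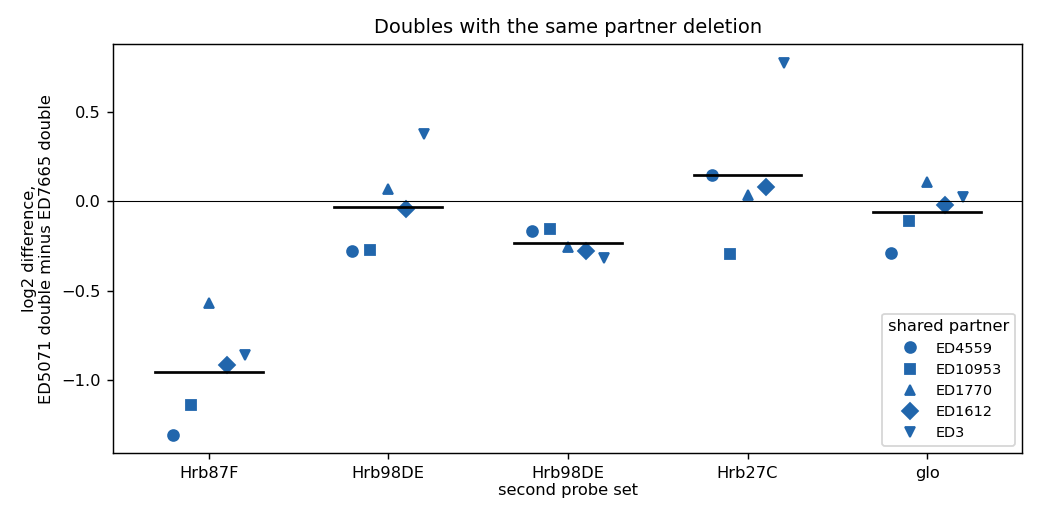
Log2 difference between the ED5071 double and the ED7665 double with the same partner deletion, 1 symbol per partner, for the 5 probe sets; black lines are means of 5 pairs. All 5 pairs of Hrb87F lie between -1.31 and -0.57, and Hrb98DE (main probe set), Hrb27C and glo have pairs on both sides of 0.

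Among ED5071 carriers, doubles were compared with singles. Hrb87F averaged 9.69 ± 0.27 in the 5 doubles (SD) and 9.96 in the 2 singles, a difference of -0.28 (exact two-sided permutation p = 0.286, adjusted over 5 probe sets 0.476). The second Hrb98DE probe set had the largest difference of the 5, with 9.01 ± 0.12 in doubles (SD, n = 5), 9.40 in singles and a difference of -0.39 (exact two-sided permutation p = 0.0952, adjusted 0.476). The other 3 differed by -0.24 to -0.06. With 21 ways to split 7 arrays the smallest p possible is 0.0476, or 0.238 after adjustment for 1 probe set alone, so this comparison could not have shown a shift of a single probe set and says nothing about whether one exists.

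Over the 27 genotypes the 6 that carry ED5071 took the 6 lowest places for Hrb87F. The next genotype was the double of ED1770 and ED3 at 10.32, and the highest was ED7665 alone at 10.86 ± 0.04 (SD, n = 2). Among the 21 genotypes without ED5071, neighbours in this order differed by at most 0.10, less than the SD of 4 of the 6 single deletions among them. For Hrb98DE, ED5071 genotypes stood at both ends, with the ED4559 double lowest of 27 at 10.61 and the ED1770 double highest at 11.28.

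The other 6 deletions were tested in the same fit, in contrasts other than the one that chose the genes. Their arrays were among those used for the choice, and the 5 ED5071 doubles each carry 1 of them. The tests are therefore not independent of the choice. None of 24 tests, 4 genes in 6 deletions, passed an adjusted p of 0.05, and 5 had an unadjusted p under 0.05 (limma). Of all genes, the share with an unadjusted p under 0.05 was 5.22% in ED7665, 21.3% in ED10953, 18% in ED4559, 15.2% in ED3, 9.89% in ED1612 and 13.4% in ED1770. The share passing the adjusted threshold was 0.908% in ED7665, 7.82% in ED10953, 2.59% in ED4559, 1.54% in ED3, 1.52% in ED1612 and 1.95% in ED1770. Hrb87F in ED7665, the deletion with the same layout as ED5071, had a term of -0.09 ± 0.11 (SE, 95% interval -0.31 to 0.13, limma adjusted p = 0.999). In the remaining 5 deletions its terms ran from -0.22 to -0.06. With the germline mean as a covariate 5 of the 24 tests passed, where the share of all genes passing was 1.42% in ED7665, 19% in ED10953, 4.73% in ED4559, 5.42% in ED3, 4.09% in ED1612 and 6.01% in ED1770 (limma).

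ED4559 gave 4 of the 5 unadjusted values, with all 4 genes lower. glo differed by -0.17 ± 0.05 (SE, adjusted p = 0.0515), Hrb87F by -0.22 ± 0.07 (0.0924), Hrb27C by -0.23 ± 0.10 (0.221) and Hrb98DE by -0.17 ± 0.08 (0.239, limma). These stand beside the 18% of all genes at an unadjusted p under 0.05 in ED4559. With the germline covariate 2 of the 4 passed, where 4.73% of all genes did, Hrb87F at -0.15 (adjusted p = 0.0358; 0.0358 to 0.208 over 11 alternatives) and glo at -0.14 (0.0396; 0.0372 to 0.109 over 11 alternatives, limma). The fifth unadjusted value was Hrb87F in ED3, at -0.16 ± 0.07 (SE, limma adjusted p = 0.296).

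Single-deletion flies as a whole were set against wild type to ask whether having any 1 of the segments in a single copy goes with a change of these genes. Wild type has the lowest array numbers, so array order cannot be told apart from deletion here. Of the 4 genes, 0 passed and 0 had an unadjusted p under 0.05, where 1.56% of all genes passed (limma). Hrb87F averaged 10.52 ± 0.28 in the 19 single arrays (SD) and 10.69 ± 0.33 in wild type (SD, n = 6), with a mean over deletions of -0.18 ± 0.11 (SE, adjusted p = 0.359, limma). Without the ED5071 singles it was -0.09. Hrb98DE differed by -0.04 (adjusted p = 0.869), Hrb27C by -0.08 (0.774) and glo by 0.00 (0.988), and the second Hrb98DE probe set by 0.30 ± 0.08 (SE, adjusted p = 0.0522 over 7930 probe sets tested, limma).

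Wild-type replicates 4 and 5 bore on these values. Hrb27C read 12.07 and 11.89 there, above the other 4 wild-type arrays (11.05 to 11.35). Hrb98DE read 11.54 and 11.30, against 10.67 to 10.96. The second Hrb98DE probe set went the other way in replicate 4, whose 8.57 was the lowest of all 44 arrays. Without the pair the differences of singles from wild type became 0.01 for Hrb87F, 0.16 for Hrb98DE and 0.20 for Hrb27C, turned in sign for all 3 and not passing. With the germline covariate, where 18.2% of all genes passed, Hrb87F did too, at -0.17 (limma adjusted p = 0.0219; 0.0219 to 0.955 over 15 alternatives).

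The third replicates, numbered from 27, were compared with the first 2 replicates, numbered up to 26, in 5 deletions without ED5071. Hrb87F was higher in the third replicate of 5 of 5 deletions, with 10.51 against 10.37 and 10.47 in ED4559, 10.75 against 10.38 and 10.53 in ED3, 10.75 against 10.30 and 10.48 in ED1612, 10.87 against 10.31 and 10.46 in ED1770, and 10.91 against 10.59 and 10.60 in ED10953. It rose by 0.31 ± 0.06 (SE, limma adjusted p = 0.00190). glo rose by 0.24 ± 0.06 (SE, adjusted p = 0.00693), higher in 5 of 5.

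Hrb98DE differed by 0.16 ± 0.07 (SE, adjusted p = 0.0891, higher in 4 of 5) and its second probe set rose by 0.20 ± 0.05 (SE, adjusted p = 0.00560, 5 of 5, limma). Hrb27C differed by -0.09 ± 0.10 (SE, adjusted p = 0.473), and its value turned on ED4559, where the third replicate read 10.61 against 11.14 and 11.39; without ED4559 the difference was 0.05. Without ED4559 Hrb98DE passed, at 0.23 (limma adjusted p = 0.0329), as did 47.1% of all genes. The 2 of 4 genes that passed stand against 50.7% of all genes, and 30.4% of all genes rose, so the share is near the background. The germline mean was 0.88 higher in the third replicates, in 5 of 5 deletions, and 18 of its 21 genes rose. With that mean as a covariate 29.4% of all genes passed. Hrb87F (0.13, adjusted p = 0.250) and glo (0.29, 0.0577) no longer passed, and Hrb27C did, at -0.43 (adjusted p = 0.0327, limma). Over 6 alternatives the adjusted p ran from 0.00184 to 0.250 for Hrb87F, from 0.0106 to 0.0577 for glo, from 0.0329 to 0.341 for Hrb98DE and from 0.0327 to 0.612 for Hrb27C.

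**Figure D5:**
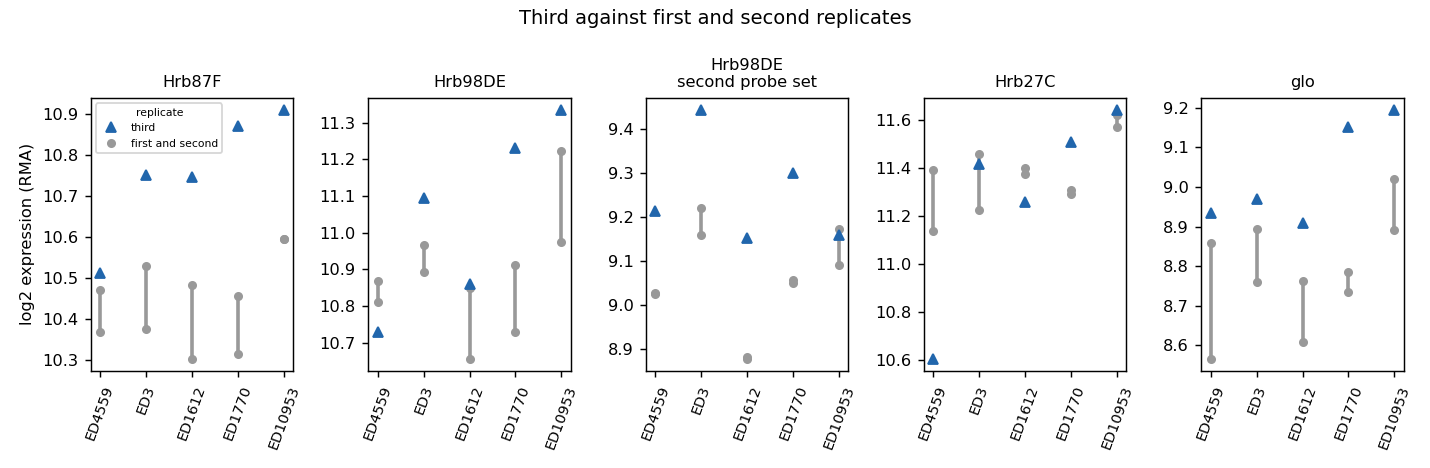
Log2 expression (RMA) of the 5 probe sets in single-deletion flies of 5 deletions, with the third replicate (array numbers from 27) as blue triangles and the first and second replicates (numbers up to 26) as joined grey points. Hrb87F and glo have the triangle highest in 5 of 5 deletions, and Hrb27C has it lowest in ED4559, at 10.61.

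Other genes of RNA processing were described from lists chosen with earlier results known. Of 17 tested genes in a list of other hnRNP-type and further RNA-binding proteins, 2 rose and 0 fell in ED5071. Their median term was 0.00. Among genes outside the interval 2.49% passed, and the median of all genes was -0.05. The 2 were larp, a La-related RNA-binding protein, by 0.69 ± 0.14 (SE, adjusted p = 0.00167), and smooth (sm), the fly hnRNP L, by 0.58 ± 0.16 (0.0353, limma). The lowest members were nito, a split-ends family protein, at -0.25, and TBPH, the fly TDP-43, at -0.19, and neither passed. Of 20 tested SR proteins and partners, 0 passed in either direction (limma), with a median of -0.06 and a range from -0.24 for the kinase Doa and -0.20 for B52 to 0.03 for vir and Sxl.

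Partners of gurken and oskar RNA in the ovary, 21 tested, had a median of -0.19 in ED5071. Here 0 rose and 1 fell, stau, the double-stranded RNA-binding protein Staufen, by 0.33 ± 0.09 on the log2 scale (SE, adjusted p = 0.0227, limma). bcd at -0.61 and otu at -0.50 had lower terms but wide errors and did not pass, and Imp (0.13) and pAbp (0.14) stood highest. Of 21 germline genes 1 fell, tud, by 0.37 ± 0.09 on the log2 scale (SE, adjusted p = 0.0123, limma), and the median was -0.31. The 1 of 21 in each list stands beside 2.49% of all genes outside the interval. Both lists hold osk, otu and orb. stau and tud were named after their values were seen. Among lists of eggshell, muscle, neuron, photoreceptor, fat body, hemocyte, and proteasome and heat shock genes, 0 passed in ED5071 (limma). These lists had 7 to 15 genes tested each, too few for 0 to be told apart from the 2.49% share. For the plain means of the RNA partner and germline lists, relative to wild type, the direction turned with the arrays compared. The gurken and oskar list had a median of 0.39 in carriers, 0.09 in all other arrays and 0.43 in the others numbered from 27. For the germline list these were 0.35, -0.14 and 0.47. Whether ovary content has a part in the lower median terms was not tested.

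Across arrays the 4 genes varied together once the deletion and array-number terms were removed. Over 44 arrays Pearson's r was 0.889 between Hrb87F and Hrb98DE, 0.856 between Hrb98DE and Hrb27C, 0.691 between Hrb87F and Hrb27C, 0.668 for glo with each of the A/B genes, and 0.595 for glo with Hrb27C. The values share arrays, which also varied in the germline mean, and the part of ovary content was not tested. With the germline mean removed as well, r was 0.603 for Hrb87F with Hrb98DE, -0.029 for Hrb87F with Hrb27C, and between 0.175 and 0.377 for the rest.

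The genes with the most similar residual pattern were, for Hrb87F, Nup358 of the nuclear pore (r = 0.907), CG8414 (0.903) and CG9302 (0.894). For Hrb98DE they were pic (0.954), the importin gene msk (0.940) and Cpsf6 of the 3′ end processing complex (0.937). Hrb27C was most like the kinase gene Tao (0.905), the cap-binding translational repressor eIF4EHP (0.895) and wech (0.895). glo was most like ssp2 (0.856), CG16972 (0.852) and CG8032 (0.851). These are ranks among 7485 genes over 44 arrays, given as a description.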

How the data were processed

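The deposited log2 values per probe set were obtained by the authors with RMA, per the submitters' processing notes. No version, genome build or probe annotation is stated (not given in the sources used here), and the log2 base was read from the range of values (2.58 to 14.66). RMA compresses low values. Of 18952 probe sets, 13647 had 1 annotated gene, 402 several and 4903 none, and 13537 were matched to a Release 6 gene on an arm. For genes with several probe sets (728 of those tested) the one with the highest mean was used.

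Groups came from the labels. limma 3.58.1 (R 4.3.3; eBayes with trend) fitted the additive model over 44 arrays, group means over 25 single and wild-type arrays, and deletion plus number group over 15 single arrays, with Benjamini-Hochberg adjustment over all genes tested. Fits were tested on simulated data. Permutation tests were exact (scipy 1.17.1 in Python 3.11.15, with pandas 2.3.3 and numpy 2.4.6; plots with matplotlib 3.10.9). Intervals were the highest-scoring runs of lower neighbours on the named arm, scoring each gene by its decrease beyond 0.3, limited to 0.7 either way.

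Members and all 12 gene lists were chosen with earlier results of these data known. The rule for named genes takes the members, the 2 highest and 2 lowest ED5071 terms of a list (printed for the 3 lists on RNA), the 3 highest and 3 lowest outside the interval, and the 3 genes most like each member; neighbours of Hrb87F were named by position.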

Additional observations from a re-analysis of the deposited data

Results flagged for a closer look

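Within the carriers of each deletion, a sample was looked at again where its distance from the nearest other sample was large against the range of the group. Of 50 such groups, which share arrays, 4 had a sample that stood out. The cut-off is one that chance alone passes in about 1 in 20. Hrb87F read 9.35 in the ED5071 double among the 9 carriers of ED4559, where the other 8 lay between 10.35 and 10.66. It read 9.61 in the ED5071 double among the 9 carriers of ED3, against 10.32 to 10.75 in the other 8, and 9.56 in the ED5071 double among the 8 carriers of ED10953, against 10.34 to 10.91 in the other 7. All 3 are ED5071 carriers, described above, whose low Hrb87F values were part of the choice of the gene. The 4 in 50 therefore cannot be read against the chance rate. Hrb98DE read 10.66 in the ED7665 double among the 9 carriers of ED3, against 10.89 to 11.10 in the other 8.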

How the results depend on the processing

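The difference of Hrb87F in ED5071 carriers, -0.81, kept its sign under all 15 alternatives, between -1.03 and -0.50, and between -0.85 and -0.74 with each of 7 arrays left out in turn. Because all 7 carriers lay below all other arrays, the alternatives that compare plain means could not have turned the sign. They describe the size of the difference only. The value of -0.50 came from ED5071 singles against wild type with the replicate number as a block, chosen after the data were seen, which also gave 0.39 for Hrb98DE and 0.21 for glo. The second Hrb98DE probe set moved to 0.53 against wild type and to -0.23 in matched doubles, and glo to -0.13 in the additive fit. With the replicate number as a block, 1516 genes passed for singles against wild type, against 117 without it, and Hrb98DE (0.17) and Hrb27C (0.15) turned in sign. In these block fits wild-type replicates 4, 5 and 6 share their number with no other array, so they drop out of the comparison. Leaving out replicates 4 and 5 without a block gave 0.16 for Hrb98DE and 0.20 for Hrb27C. The labels do not say that a number marks a shared day or batch. Deviations of same-numbered single arrays had a median r of 0.309 (-0.534 to 0.842, 37 of 52 pairs over 0.1), against -0.197 for different numbers, and 16 of 19 arrays correlated best with their own number, a hint from the data and not the design. The reported values use no block. Beyond the wild-type arrays lost to the block, the cause of these shifts was not tested.

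Counts of genes passing depended on the fit. Without the array-number block they were 965 for ED5071, 1474 for ED7665, 127 for ED4559 and 53 for ED3. With the germline mean as a covariate they were 835 for ED5071, 106 for ED7665, 1420 for ED10953, 354 for ED4559, 406 for ED3, 306 for ED1612, 450 for ED1770, 1363 for singles against wild type and 2197 for the third replicates. Without wild-type replicates 4 and 5 they were 401 for ED5071, 1601 for ED1770 and 251 for singles. Leaving out interval genes gave 20 for ED7665, 121 for ED4559, 36 for ED1612 and 59 for ED1770, since those genes make up many calls, and leaving out the ED5071 singles gave 39 for singles against wild type. With 1 array left out in turn, the counts ran from 155 (without the ED5071 double with ED3) to 298 for ED5071, from 75 (without ED3 replicate 3) to 150 for ED3, and from 28 (without wild-type replicate 4) to 131 for singles, with 66, 69 and 75 without wild-type replicates 1, 2 and 3, 55 without ED5071 replicate 1 and 48 without ED7665 replicate 2.

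For single genes, all uncalled in the main analysis, signs turned without the array-number block for Hrb87F (0.10) and glo (0.065) in ED7665; with the germline covariate for Hrb27C in ED7665 (0.018), Hrb98DE in ED1770 (-0.0071) and Hrb98DE in the third replicates (-0.11); with the mean of all probe sets for Hrb98DE in ED3 (0.0079) and ED1770 (-0.013); and without wild-type replicates 4 and 5 for Hrb27C in ED7665 (0.00099), Hrb98DE in ED3 (0.027), Hrb87F in ED1612 (0.011), glo in ED1770 (0.014), and Hrb87F (0.011), Hrb98DE (0.16) and Hrb27C (0.20) in singles. glo in singles turned to -0.015 without ED5071 singles, and Hrb27C in the third replicates to 0.049 without ED4559. Calls were gained with the germline covariate by Hrb98DE (0.11) and Hrb27C (0.20) in ED10953, Hrb87F (-0.15) and glo (-0.14) in ED4559, Hrb87F (-0.17) in ED1770, Hrb87F (-0.17) in singles and Hrb27C (-0.43) in the third replicates, where Hrb87F (0.13) and glo (0.29) lost theirs. glo in ED4559 (-0.17) also passed among genes with a mean of at least 7, where 165 genes did. Hrb27C in ED1770 (0.26) passed without wild-type replicates 4 and 5, where 1601 of 7485 genes did, against 146 in the main fit. Hrb98DE in the third replicates (0.23) passed without ED4559, where 47.1% of all genes did. With 1 array left out, values ran from -0.013 to 0.027 for Hrb98DE in ED10953, -0.0064 to 0.033 for Hrb27C in ED3, -0.030 to 0.00037 for glo in ED1770 and -0.19 to -0.16 for glo in ED4559. In singles against wild type they ran from -0.11 to 0.066 for Hrb98DE, -0.15 to 0.050 for Hrb27C and -0.037 to 0.055 for glo. In the third replicates, with 1 deletion left out, they ran from -0.17 to 0.049 for Hrb27C and 0.10 to 0.23 for Hrb98DE. Of the other values, 300 tested ones kept their direction and side of the threshold, 71 counts stayed within 1.5 times, and 56 untested differences in ED5071 kept their sign. A further 10 untested ones turned in sign while moving by less than 1 SD, among them Hrb98DE at -0.0072, glo at -0.065 and the second Hrb98DE probe set at -0.11 against other arrays numbered from 27, and Hrb27C at -0.011 without the ED1770 double. The number of arrays limits all of these comparisons.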
